A study of Mus musculus with 8 samples.

Results

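The genes described are those whose symbol on the array begins with Kcn, a subfamily letter and a number, the naming of potassium channel subunits, except the 4 GIRK subunits Kcnj3, Kcnj5, Kcnj6 and Kcnj9. The rule found 93 of 34650 gene symbols, measured by 141 of 55681 probes and falling into 20 subfamilies by name stem. Of the 93 symbols, 89 code for proteins and 4 are non-coding transcripts that carry the name of a neighbouring channel gene. Messenger RNA of the prefrontal cortex (PFC) was measured in 4 male α-Gal A(-/0) mice, a null mutant of α-galactosidase A that models Fabry disease, and in 4 male wildtype mice. All were 20 to 24 weeks old, on the C57BL/6J strain by their labels, and each mouse had its own one-color Agilent array of 60-base probes. The mutants and the wildtype mice came from separate inbred colonies, so that genotype and colony cannot be told apart.

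Potassium channels set the resting potential of neurons and glia, repolarize action potentials and shape firing. Voltage-gated (Kv) channels are built from Kcna to Kcnd, Kcnh and Kcnq subunits, joined by electrically silent subunits and by auxiliary β, KChIP and KCNE proteins. Inward rectifiers (Kcnj) and two-pore-domain channels (Kcnk) carry resting currents, and Kcnma, Kcnn and Kcnt channels open with intracellular calcium or sodium. In cortex, Kcnj10 and Kcnj16 belong mainly to astrocytes, Kcnj8 to pericytes and smooth muscle, Kcnk13 to microglia and Kcnj13 to the epithelium of the choroid plexus.

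Signals are given as log2 of the processed intensity after quantile normalization, and differences as α-Gal A(-/0) minus wildtype. A probe entered the test if either genotype had a signal well above background in each of its 4 mice. This held for 115 probes of 79 channel genes and left 14 genes untested, of which 8 were above background on no array. The untested genes were Kcna10, Kcne1, Kcne2, Kcnj1, Kcnj15, Kcnk5, Kcnk7, Kcnk18, Kcnmb1, Kcnmb3, Kcnmb4os1, Kcnn1, Kcnn4 and Kcnv2. Of the 115 tested probes, 103 were above background on all 8 arrays and 12 passed through the wildtype arrays only. All 12 fell short on the array of α-Gal A(-/0) mouse 2, and 10 of them on that mutant array alone. None passed through the mutant arrays only.

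That array stood apart in depth. It had 29934 probes well above background, against 35206 to 36131 on the other mutant arrays and 35639 to 38227 on the wildtype arrays, a genotype difference that did not pass an exact permutation test over the 70 relabelings (two-sided p = 0.171). It also held 1305 bright spots, more than 4-fold above the median of the other arrays, where each other mutant array held 171 to 214 and the wildtype arrays 124 to 246. These were counted per spot, before the spots of a probe were averaged. All 8 arrays lay on 1 slide, whose row 1 held α-Gal A(-/0) mouse 1 with wildtype mice 1, 2 and 3 and whose row 2 held the other mutants with wildtype mouse 4. The probe for Gla, the gene disrupted in the mutants, read 17.13 to 17.18 in mutant and 17.01 to 17.17 in wildtype mice (log2 fold change 0.06 ± 0.056 SE, limma adjusted p = 0.707), and whether its position lies in the deleted part is not known here. All 5 listed markers of excitatory neurons were measured, at a mean of 11.79 to 12.03 in mutants and 11.98 to 12.15 in wildtype mice. Of their 8 probes 8 lay below 0, with a median log2 fold change of -0.16, 0 called and 1 with an unadjusted p under 0.05, and their part in the channel values was not tested.

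No potassium channel probe was called between genotypes at an adjusted p under 0.05, where 0.883% of the 34326 tested probes of the array were (limma with Benjamini-Hochberg adjustment). Of those, 0.306% were higher and 0.577% lower in the mutants. At an unadjusted p under 0.05 there were 18 of 115 channel probes, 3 higher and 15 lower in the mutants (15.7%, against 12% of all tested probes, of which 4.42% were higher and 7.57% lower). Among the 15 lower, Kcne3, Kcnip3 probe 2 and Kcnmb2 probe 2 had entered the test through the wildtype arrays only. No channel probe had entered through the mutant arrays only, so the filter bears on this split. The methods of the study set a criterion that joined an unadjusted p of 0.01 or lower to a 1.2-fold change. In the limma fit 4 channel probes met it, or 3.48% against 3.46% of all tested probes (1.14% higher and 2.31% lower). Of these, 1 was higher and 3 were lower in the mutants, among them Kcnj13 probe 1 and Kcnk6, both lower. The channels thus met the criterion at the share of the array as a whole. The count was 1 without α-Gal A(-/0) mouse 2 (3.31% of all tested probes), 1 without α-Gal A(-/0) mouse 3 (3.05%) and 7 without α-Gal A(-/0) mouse 4 (4.16%). It was 1 with the slide row as a block (2.65% of all), when only Kcnn2 met the criterion.

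Values of the genotypes did not overlap for 9 channel probes, 2 higher and 7 lower in the mutants, which is 7.83% against 7.95% of all tested probes (3.08% higher and 4.87% lower). With a single mouse left out the count ranged between 9 and 20. It was 20 without α-Gal A(-/0) mouse 1 or 4, where 13.4% and 14% of all tested probes did not overlap. It was 18 without wildtype mouse 2 (14.3% of all), 17 without wildtype mouse 3 (11.2%) and 19 without wildtype mouse 4 (10.8%). The share of all tested probes was thus also above the 7.95% of the full set of mice. The median log2 fold change of the channel probes was -0.08, beside -0.02 for all tested probes, and 66.1% of the channel probes lay below 0 beside 58.1% of all. Within slide row 1 alone the channel median was -0.03, beside -0.0006 for all tested probes, and within row 2 it was -0.10 beside -0.04. With the slide row as a block it was -0.04 beside -0.02. In that limma fit 12 of the 115 channel probes, 8 of them lower, had an unadjusted p under 0.05, as did 8.4% of all tested probes. For 97 of the 115 probes the 95% interval of the difference stayed within 1.5-fold in either direction (84.3%, against 81.5% of all tested probes), and the median SE was 0.102. Differences below 0.2 on the log2 scale were found for 87 probes and below 0.5 for 111.

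**Figure D1:**
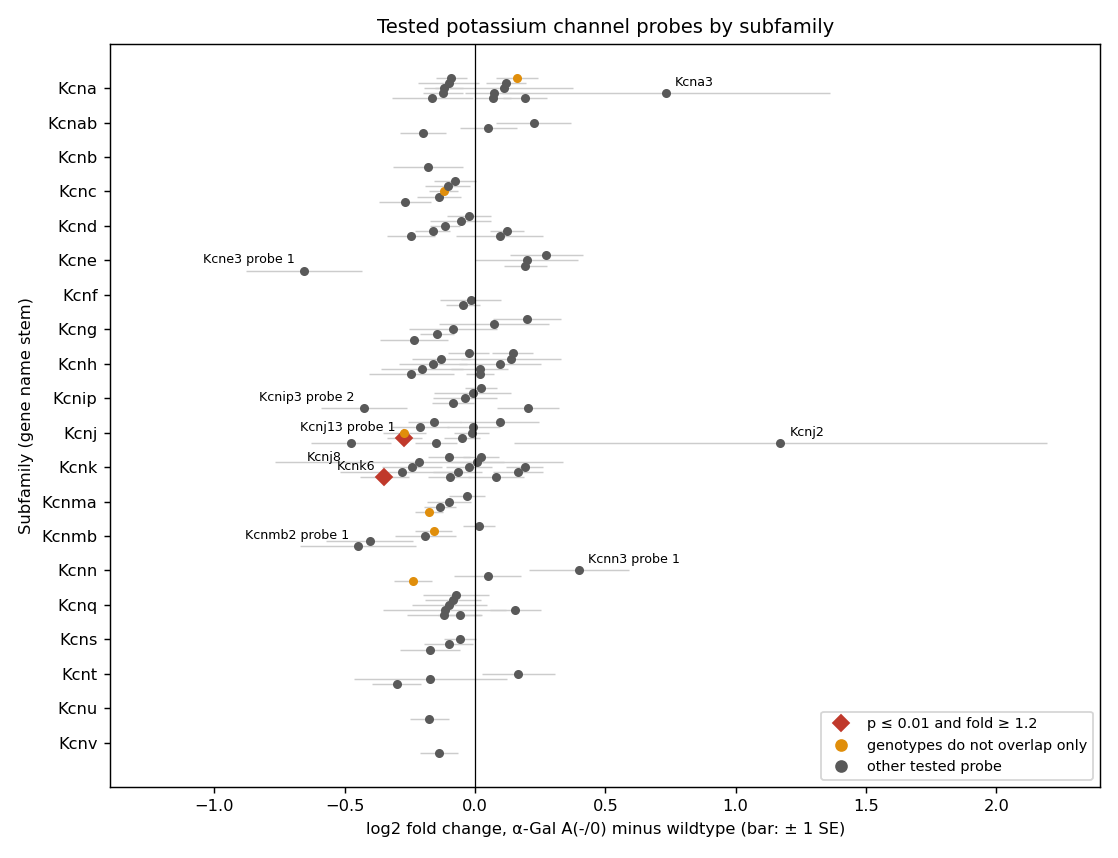
Log2 fold change (α-Gal A(-/0) minus wildtype, x axis) of the tested potassium channel probes by subfamily (y axis; 9 of the 115 are not plotted), with bars of 1 SE and 4 mice per genotype. Most probes lie within 0.2 of 0, diamonds mark Kcnj13 probe 1 and Kcnk6, which met the study's criterion, and Kcnj2 and Kcna3 lie farthest to the right.

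Among the pore-forming Kv1 to Kv4 subunits (Kcna, Kcnb, Kcnc, Kcnd) 16 of 17 genes were tested with 28 probes, of which 18 lay below 0 and 10 above. At an unadjusted p under 0.05, 4 were lower and 0 higher. Of all tested probes 58.1% lay below 0, and 7.57% were lower and 4.42% higher at that p. The counts of each channel group below are to be read beside these shares. Kcnb2, a delayed rectifier, lay at -0.18 ± 0.13 (adjusted p = 0.636).

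The Kv3 genes (Kcnc), which allow fast spiking, had 6 of 7 probes below 0. All 3 probes of Kcnc1 pointed the same way. Kcnc1 probe 3 read 11.58, 11.27, 11.32 and 11.46 in α-Gal A(-/0) mice, against 11.90, 11.54, 11.65 and 11.63 in wildtype mice (log2 fold change -0.27 ± 0.10, adjusted p = 0.345). Here mutant mouse 1 reached above the lowest wildtype value. Kcnc1 probe 2 was narrower, with 11.49, 11.50, 11.47 and 11.49 in α-Gal A(-/0) mice and 11.65, 11.68, 11.52 and 11.59 in wildtype mice, and did not overlap at a log2 fold change of only -0.12 ± 0.055 (adjusted p = 0.437). Kcnc1 probe 1 had -0.11 ± 0.086. Pvalb, a marker of fast-spiking cells, was also below 0 in both probes, at -0.33 ± 0.12 (adjusted p = 0.342) and -0.19 ± 0.099 (adjusted p = 0.501). The whole list of inhibitory neuron markers averaged 13.37 to 13.49 in mutants and 13.38 to 13.50 in wildtype mice, with 4 of 8 probes below 0, and Slc32a1 lay at 0.36 and 0.14 and Gad2 at 0.15. The part of these markers in the Kcnc1 values was not tested.

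Kv4 genes carry the A-type current of dendrites. Kcnd3 probe 1 read 5.69, 5.96, 5.80 and 6.00 in α-Gal A(-/0) mice, against 6.21, 6.08, 6.19 and 5.94 in wildtype mice, with overlap at wildtype mouse 4. Its log2 fold change was -0.25 ± 0.093 (adjusted p = 0.358), and that of Kcnd3 probe 2 was -0.11 ± 0.057 (adjusted p = 0.473). Probe 1 differed by -0.47 within slide row 1 and by only -0.03 within row 2, and probe 2 by -0.12 and -0.15. The 3 probes of Kcnd1 disagreed in sign, with 0.09 ± 0.17 for probe 1, 0.12 ± 0.065 for probe 2 and -0.16 ± 0.067 for probe 3 (adjusted p = 0.391). Kcnd2 differed by -0.02 ± 0.085, with a 95% interval that stayed within 1.5-fold.

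The Kv1 genes (Kcna) had 7 of 12 probes above 0. Kcna4, which encodes the rapidly inactivating Kv1.4, was nearly constant in α-Gal A(-/0) mice at 11.86, 11.88, 11.87 and 11.90, against 11.56, 11.93, 11.60 and 11.65 in wildtype mice. Wildtype mouse 2 lay above all mutants and the other wildtype mice below them (log2 fold change 0.19 ± 0.084, adjusted p = 0.42). Kcna6 probe 2 did not overlap between genotypes at 0.16 ± 0.08 (adjusted p = 0.473), while Kcna6 probes 1 and 3 lay at -0.09 and -0.16. Kcna1 and both Kcna2 probes, the axonal Kv1.1 and Kv1.2, ranged between -0.12 and -0.10.

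The electrically silent subunits, which form no channel alone but modify other Kv channels, had 9 of 11 probes below 0, and none had an unadjusted p under 0.05. Kcng2 probe 1 had -0.15 ± 0.065 (adjusted p = 0.423), Kcnv1 -0.14 ± 0.073 (adjusted p = 0.504), Kcns3 -0.17 ± 0.12 (adjusted p = 0.595) and Kcng3 0.20 ± 0.13 (adjusted p = 0.591), the last with a probe above background on 3 mutant arrays. With a mouse left out these ranged from -0.17 to -0.08 for Kcnv1, -0.26 to -0.09 for Kcns3 and 0.12 to 0.29 for Kcng3. The 2 Kcnf1 probes lay at -0.02 and -0.05. The EAG, ERG and ELK genes (Kcnh) split evenly, with 5 probes above 0 and 5 below and a median of -0.004. The lowest p of this family was that of Kcnh4, an ELK channel, with 0.14 ± 0.079 for probe 1 (adjusted p = 0.517).

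KCNQ genes encode the M-current, a slow brake on repetitive firing. The 10 tested probes of the 5 coding genes had a median of -0.07. Kcnq3 had 0.16 ± 0.099 (adjusted p = 0.578), from 8.33, 8.08, 8.37 and 8.01 in α-Gal A(-/0) mice and 8.05, 8.18, 7.98 and 7.96 in wildtype mice, and the groups overlapped. Kcnq5 lay at -0.09 ± 0.11 and -0.06 ± 0.085 in its 2 probes, and Kcnq1 at -0.12 ± 0.14 and -0.10 ± 0.15.

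Across all channels, 29 genes had several tested probes. Their median spread between probes was 0.104 on the log2 scale, and 23 of them had the same sign throughout.

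The calcium- and sodium-activated channels (Kcnma, Kcnn and Kcnt), counted together with Kcnu1, had 8 of 11 probes below 0, where 58.1% of all tested probes were. Of these, 4 had an unadjusted p under 0.05, that of Kcnu1 among them, against 0 above. Over all tested probes the shares were 7.57% lower and 4.42% higher. Kcnma1, the BK channel that speeds repolarization, had all 4 probes below 0, at -0.13, -0.10, -0.03 and -0.18 from probe 1 to probe 4. Kcnma1 probe 4 read 9.44, 9.43, 9.34 and 9.38 in α-Gal A(-/0) mice, against 9.58, 9.52, 9.56 and 9.64 in wildtype mice, without overlap (SE 0.055, adjusted p = 0.264). It was -0.11 within slide row 1 and -0.26 within row 2. The shared direction was not kept in every setting, since Kcnma1 probe 3 turned to 0.02 with the slide row as a block, and within slide row 1 probes 2 and 3 lay at 0.02 and 0.11.

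Kcnn2 encodes SK2, a channel of the afterhyperpolarization. It read 11.52, 11.65, 11.66 and 11.65 in α-Gal A(-/0) mice, against 11.92, 11.72, 11.81 and 11.99 in wildtype mice. The groups did not overlap, and the mutants were close together apart from the lower mouse 1 (log2 fold change -0.24 ± 0.073, adjusted p = 0.257). With the slide row as a block its log2 fold change was -0.31 and its adjusted p 0.212, the lowest of any channel in that fit. Kcnn3, SK3, had 0.40 ± 0.19 for probe 1 (adjusted p = 0.457), which was above background on 3 mutant and 4 wildtype arrays, and 0.05 ± 0.13 for probe 2.

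The sodium-activated Kcnt2 read 7.75, 7.57, 7.68 and 7.98 in α-Gal A(-/0) mice with probe 1, against 8.11, 8.05, 8.10 and 7.93 in wildtype mice. Only wildtype mouse 4 lay within the mutant range (log2 fold change -0.30 ± 0.094, adjusted p = 0.268). Kcnt2 probe 2 was dim and above background on 2 mutant arrays (log2 fold change -0.17 ± 0.29). Kcnu1, known as a sperm channel, had -0.18 ± 0.073 (adjusted p = 0.4).

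The inward rectifiers other than GIRK had 9 of 11 probes below 0 (58.1% of all tested probes). At an unadjusted p under 0.05, 3 were lower and 0 higher (7.57% and 4.42% of all tested probes). Their median of -0.15 was the lowest of the role groups, and none of them was called. Kcnj13 encodes Kir7.1. Its probe 1 read 8.70, 8.53, 8.64 and 8.54 in α-Gal A(-/0) mice, against 8.78, 8.84, 8.90 and 8.98 in wildtype mice, without overlap (log2 fold change -0.27 ± 0.067, adjusted p = 0.161). The difference was -0.14 within slide row 1 and -0.41 within row 2. Kcnj13 probe 2 read 8.52, 8.58, 8.64 and 8.85 in α-Gal A(-/0) mice, against 8.93, 8.63, 8.82 and 9.06 in wildtype mice, and the groups overlapped (-0.21 ± 0.11, adjusted p = 0.491).

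Both Kcnj13 probes lie side by side on the minus strand of chromosome 1 (mm9), probe 1 at chr1:89282859-89282918 and probe 2 at chr1:89282991-89283050, and are assigned to the same RefSeq transcript. Their first 30 bases are shown as a pair that gave similar differences.
Kcnj13 probe 1: tgtatctcatgtttccttgttctcagtgct
Kcnj13 probe 2: catatcaatggacaaagcattgacaatttc
Choroid plexus markers lay mostly above 0 in the same arrays. Of 6 listed genes 5 were tested (all but Ttr), 1 of their 6 probes lay below 0, and 0 were called. Their mean signal was 6.16 to 7.05 in mutants against 6.13 to 6.64 in wildtype mice. Clic6 varied most among mice, with 9.82, 10.02, 9.87 and 7.70 in α-Gal A(-/0) mice. It read 7.50, 9.45, 8.69 and 9.05 in wildtype mice. The part of these markers in the Kcnj13 values was not tested.

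The glial inward rectifiers Kcnj16 and Kcnj10 form Kir5.1 and Kir4.1, which clear potassium from around neurons. Kcnj16 read 11.17, 11.15, 10.97 and 11.06 in α-Gal A(-/0) mice, against 11.49, 11.39, 11.18 and 11.37 in wildtype mice. The values did not overlap, though the highest mutant and the lowest wildtype mouse nearly met (log2 fold change -0.27 ± 0.081, adjusted p = 0.252). Kcnj10 read 13.85, 13.88, 13.89 and 13.98 in α-Gal A(-/0) mice, against 14.25, 14.03, 13.90 and 14.04 in wildtype mice (-0.15 ± 0.08, adjusted p = 0.505). Astrocyte markers were lower too, with 9 of 9 probes of the 5 listed genes below 0, 0 called, 4 with an unadjusted p under 0.05, and a mean of 12.18 to 12.40 in mutants against 12.40 to 12.52 in wildtype mice. Their part in the Kcnj16 and Kcnj10 differences was not tested, and in whole tissue fewer cells of a type and less RNA per cell cannot be told apart.

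Kcnj8 encodes Kir6.1, the pore of the vascular ATP-sensitive potassium channel. It read 6.48, 5.99, 6.28 and 6.24 in α-Gal A(-/0) mice, against 6.98, 6.45, 6.52 and 6.94 in wildtype mice, with mutant mouse 1 just above wildtype mouse 2 (log2 fold change -0.48 ± 0.15, adjusted p = 0.282). It was -0.16 within slide row 1 and -0.78 within row 2. Abcc9, the sulfonylurea receptor SUR2 that pairs with Kir6.1, read 7.81, 7.36, 7.45 and 7.65 in α-Gal A(-/0) mice, against 7.85, 8.06, 7.94 and 7.91 in wildtype mice (-0.37 ± 0.10, adjusted p = 0.217). All mutants were below all wildtype mice for Abcc9. Mural cell markers averaged 9.82 to 10.05 in mutants and 9.86 to 10.07 in wildtype mice, with 4 of 4 probes below 0 and 0 called.

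The neuronal counterpart of this channel pairs Kcnj11 (Kir6.2) with Abcc8 (SUR1). Kcnj11 lay at -0.05 ± 0.069 and -0.16 ± 0.10 in its 2 probes. One Abcc8 probe read 12.76, 12.58, 12.58 and 12.69 in α-Gal A(-/0) mice, against 12.96, 12.86, 12.76 and 12.90 in wildtype mice (-0.22 ± 0.069, adjusted p = 0.275), and a second had -0.17 ± 0.068 (adjusted p = 0.385). Kcnj4 and Kcnj12, further classical inward rectifiers, lay at -0.01 each.

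**Figure D2:**
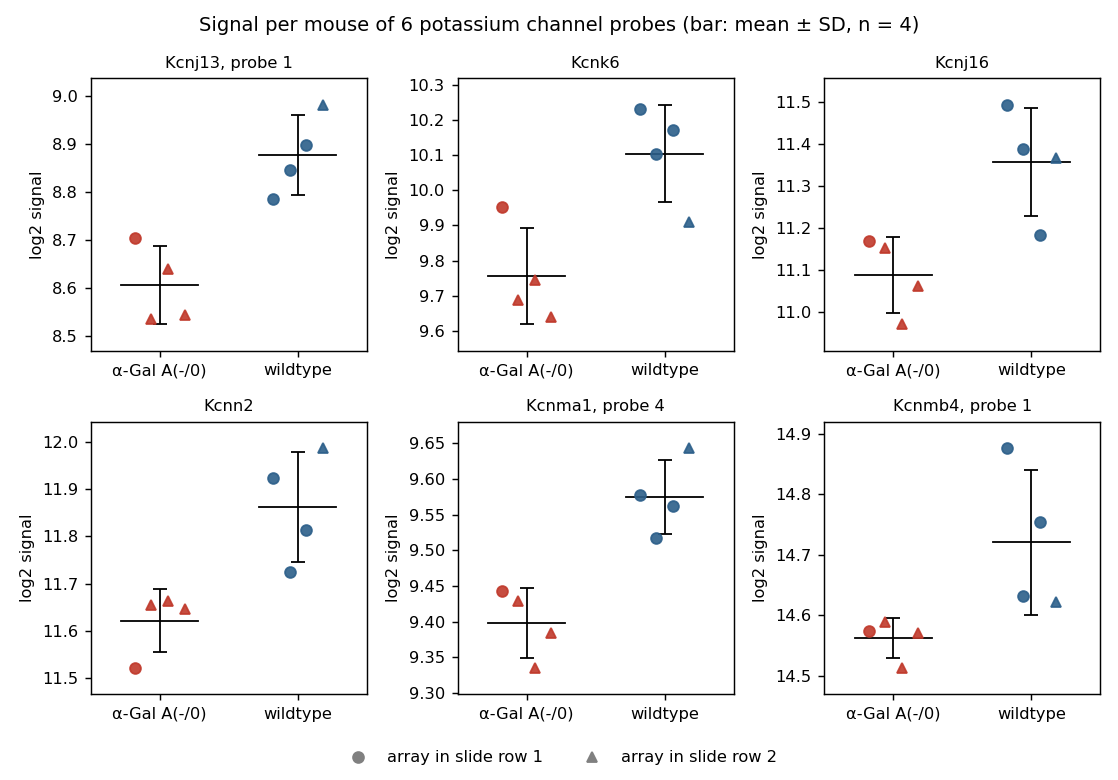
Log2 signal per mouse (y axis, own scale per panel) of 6 probes that were lower in α-Gal A(-/0) mice, with mean and SD of 4 mice per genotype, circles for slide row 1 and triangles for row 2. The genotypes are separated for Kcnj13 probe 1, Kcnj16, Kcnn2, Kcnma1 probe 4 and Kcnmb4 probe 1, while for Kcnk6 one mutant mouse (9.95) lies above the lowest wildtype mouse (9.91).

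Two-pore-domain channels give background potassium current. Of 14 genes 11 were tested with 13 probes, of which 8 lay below 0 and 5 above. Kcnk6, TWIK2, had the largest negative difference of the group. It read 9.95, 9.69, 9.74 and 9.64 in α-Gal A(-/0) mice, against 10.23, 10.10, 10.17 and 9.91 in wildtype mice (log2 fold change -0.35 ± 0.095, 95% interval -0.57 to -0.13, adjusted p = 0.213). The mutant of slide row 1 was the highest mutant and the wildtype mouse of row 2 the lowest wildtype, so that within rows the difference was -0.22 in each. Its single probe lies on the minus strand at chr7:30007215-30007274 (mm9), has a stop codon in all 3 forward frames, and is shown as the only reading of this gene.
Kcnk6 probe 1: tgggaagtgatgactattcctggttctgaa

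Kcnk13, THIK-1, the background channel of microglia, went the other way. It read 9.26, 9.14, 9.30 and 9.35 in α-Gal A(-/0) mice, against 9.01, 9.16, 9.14 and 8.98 in wildtype mice, with mutant mouse 2 within the wildtype range (log2 fold change 0.19 ± 0.07, adjusted p = 0.345). Microglial markers were lower in the same arrays, with 8 of 9 probes of the 5 listed genes below 0. Of these, 1 probe, for Csf1r, was called (adjusted p = 0.0119). Another Csf1r probe was the only one above 0 (0.59 ± 0.45). It read 9.98, 12.12, 10.05 and 10.06 in α-Gal A(-/0) mice, against 9.92, 10.14, 9.86 and 9.93 in wildtype mice. Only mutant mouse 2 stood out there. The mean of the markers was 11.61 to 11.82 in mutants against 11.95 to 12.15 in wildtype mice. Kcnk15 was widely spread among mice, with -0.28 ± 0.24 in probe 1 and -0.22 ± 0.55 in probe 2, which was above background on 3 mutant arrays. Probe 2 read 6.23, 5.52, 6.87 and 7.16 in α-Gal A(-/0) mice, against 7.47, 6.72, 5.15 and 7.30 in wildtype mice. Olfactory bulb markers had a mean of 7.92, 8.12, 9.88 and 9.59 in α-Gal A(-/0) mice. In wildtype mice it was 9.41, 7.94, 7.68 and 8.85. Of their 5 probes 0 lay below 0 and 1, for Cdhr1, was called. Their part in the Kcnk15 values was not tested. TREK-1 (Kcnk2) had 0.16 ± 0.096, and TASK-1 (Kcnk3) lay at -0.07. TRAAK (Kcnk4) lay at -0.02 ± 0.087 in probe 1 and -0.24 ± 0.11 in probe 2 (adjusted p = 0.45). With mutant mouse 4 left out, probe 2 was among the 7 channel probes that met the study's criterion, as did 4.16% of all tested probes. It met the criterion neither in the main fit nor under any other alternative.

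Auxiliary subunits divided in direction, with 8 probes above 0 and 9 below among 12 of 16 coding genes. Kcnmb2, a β subunit that inactivates BK channels, lay below 0 in both probes. Probe 1 read 6.58, 5.99, 6.37 and 6.17 in α-Gal A(-/0) mice, against 7.31, 6.74, 6.24 and 6.62 in wildtype mice (-0.45 ± 0.22, adjusted p = 0.473), and probe 2 had -0.40 ± 0.17 (adjusted p = 0.391). For both, the ranges overlapped, and probe 2 was above background on 3 mutant arrays and entered the test through the wildtype arrays only. Kcnmb4, the β subunit of neuronal BK channels, did not overlap in probe 1, with 14.57, 14.59, 14.51 and 14.57 in α-Gal A(-/0) mice and 14.88, 14.63, 14.75 and 14.62 in wildtype mice (-0.16 ± 0.07, adjusted p = 0.421), whereas probe 2 lay at 0.02 ± 0.062.

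Among the KChIPs, calcium sensors of Kv4 channels, Kcnip3 gave opposite signs. Probe 1 had 0.02 ± 0.061 and the dim probe 2, above background on 3 mutant arrays, -0.43 ± 0.17 (adjusted p = 0.369). Kcnip2 had 0.20 ± 0.12 (adjusted p = 0.544). The KCNE-related Kcne1l lay above 0 in both probes, at 0.19 ± 0.083 (adjusted p = 0.411) and 0.27 ± 0.14 (adjusted p = 0.489), with 9.22, 9.24, 9.46 and 9.40 in α-Gal A(-/0) mice and 9.16, 9.08, 9.03 and 9.28 in wildtype mice for probe 1. With the slide row as a block these fell to 0.11 for probe 1 and 0.07 for probe 2. Kcne3 had the most negative value of all channels at -0.66 ± 0.22 (adjusted p = 0.305), from 4.49, 3.96, 4.50 and 4.50 in α-Gal A(-/0) mice and 5.48, 5.24, 4.86 and 4.50 in wildtype mice. It was above background on only 2 mutant arrays, and within slide row 2 its difference was -0.18.

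The Kvβ gene Kcnab1 read 13.02, 13.08, 13.03 and 12.48 in α-Gal A(-/0) mice, against 12.46, 12.71, 12.79 and 12.75 in wildtype mice (0.23 ± 0.14, adjusted p = 0.578). Mutant mouse 4 and wildtype mouse 1 were the lowest of their genotypes. The same 2 mice were lowest in the mean of striatal neuron markers, which was 12.96, 13.12, 12.67 and 11.44 in α-Gal A(-/0) mice and 11.13, 12.52, 11.99 and 12 in wildtype mice (12 probes of 8 genes tested, 0 below 0 and 0 called). The part of these markers in the Kcnab1 values was not tested. Kcnab3 had -0.20 ± 0.088 (adjusted p = 0.425) and Kcnab2 0.05 ± 0.11. The 3 tested non-coding genes, Kcnd3os, Kcnq1ot1 and Kcnmb4os2, had 4 probes between -0.19 and -0.06.

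Large values of Kcnj2 and Kcna3 rested on a single array. Kcnj2, Kir2.1, read 5.78, 10.19, 5.17 and 5.46 in α-Gal A(-/0) mice, against 5.17, 5.57, 5.42 and 5.76 in wildtype mice (log2 fold change 1.17 ± 1.02, adjusted p = 0.686). Kcna3, Kv1.3, read 7.43, 10.38, 7.52 and 7.43 in α-Gal A(-/0) mice, against 7.45, 7.33, 7.61 and 7.44 in wildtype mice (0.73 ± 0.63, adjusted p = 0.68). In both genes only α-Gal A(-/0) mouse 2 stood out, and the other mutants lay in or next to the wildtype range. Without that mouse the differences were -0.008 for Kcnj2 and 0.004 for Kcna3.

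The spots around both probes were bright on the same array. Among the up to 48 spots within 3 rows and columns of the Kcnj2 spot, 27 were more than 4-fold above the median of the other arrays for α-Gal A(-/0) mouse 2, and at most 1 on any other array. Around the Kcna3 spot there were 15 for this mouse and at most 2 elsewhere. In all, 6.8% of the probes of this array had 5 or more bright neighbours, against 0.185% to 0.365% on the other mutant arrays and 0.018% to 0.499% on the wildtype arrays. The 13 channel probes in such surroundings on that array included the tested Kcnj4, Kcnt1 probe 2, Kcnj11 probe 1 and Kcnn2. Kcnt1 probe 2, a sodium-activated channel gene, read 12.12, 12.73, 12.10 and 12.22 in α-Gal A(-/0) mice, against 12.17, 12.17, 11.99 and 12.18 in wildtype mice, and was again highest in mutant mouse 2. The Kcnn2 value was the mean of 10 spots, and 13 was the highest count of bright neighbours around any of them. Leaving out that whole value on this array gave -0.25 for Kcnn2, against -0.24 with it.

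**Figure D3:**
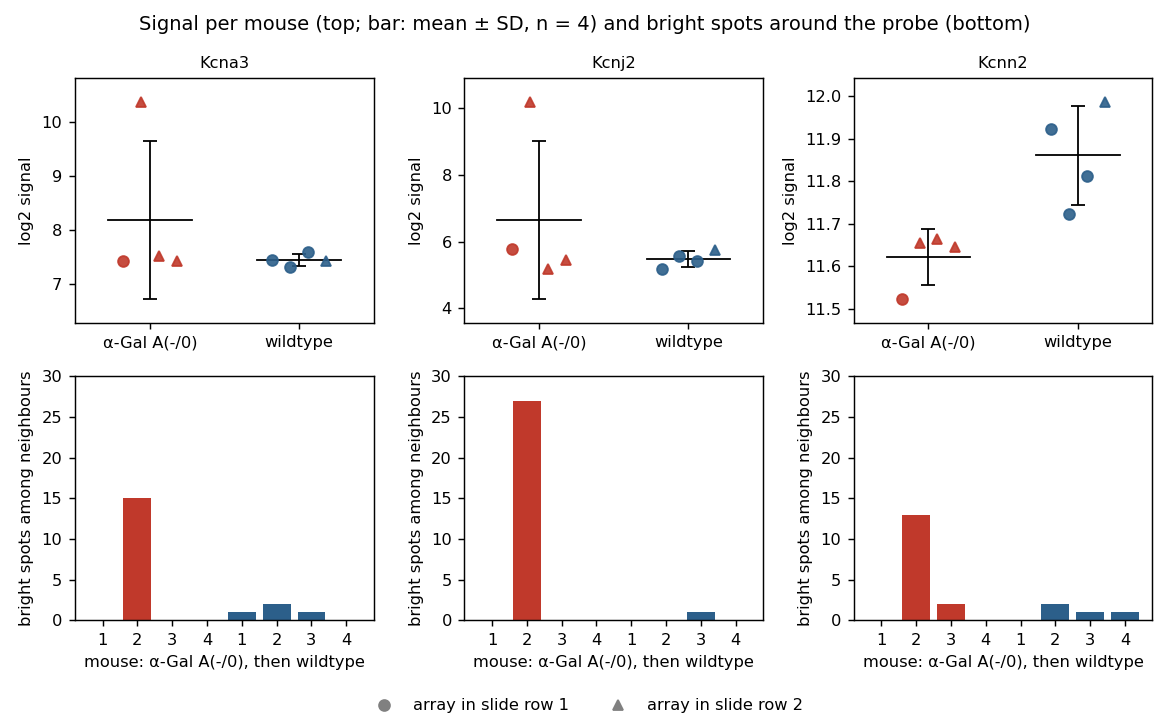
Top, log2 signal per mouse of Kcna3, Kcnj2 and Kcnn2 (mean and SD, 4 mice per genotype); bottom, number of bright spots among the neighbours of the probe on each array, with the 4 α-Gal A(-/0) mice left of the 4 wildtype mice. On the array of α-Gal A(-/0) mouse 2 there were 15, 27 and 13 bright neighbours, and on the other arrays at most 2. Kcnn2 is the mean of 10 spots, and its count is the highest around any of them.

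Partner and anchoring proteins of potassium channels were described from a list of 36 genes, of which 34 were tested with 63 probes. None was called, and 4 probes were higher and 6 lower at an unadjusted p under 0.05 (4.42% and 7.57% of all tested probes). The median of -0.03 lay beside -0.02 for all tested probes. Cntnap2, the Caspr2 protein that gathers Kv1 channels along axons, was higher without overlap in a pair of probes. The first read 9.76, 9.68, 9.82 and 9.78 in α-Gal A(-/0) mice, against 9.37, 9.53, 9.32 and 9.57 in wildtype mice (0.31 ± 0.073, adjusted p = 0.136), the second had 0.22 ± 0.058 (adjusted p = 0.189) and the remaining probe 0.02 ± 0.11. Dlg1, a scaffold protein of the PSD-95 family that binds Kv1 channels, had 0.20 ± 0.059 (adjusted p = 0.233) in a probe without overlap, and -0.03 ± 0.083 and 0.02 ± 0.093 in the other two.

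Snap25, a SNARE protein of vesicle release, read 15.58, 15.59, 15.83 and 15.77 in α-Gal A(-/0) mice, against 16.06, 15.96, 16.07 and 15.93 in wildtype mice. All mutants were below all wildtype mice (-0.32 ± 0.077, adjusted p = 0.155). With an intensity trend and robust variances this probe was called (adjusted p = 0.023).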

How the data were processed

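The intensity of each spot was deposited by the authors as the processed signal of Agilent Feature Extraction 10.7.3.1, without normalization between arrays, beside raw mean and background intensity. The deposited series value table was not used, since its columns do not follow the arrays of their samples. Replicate spots were averaged per probe, and log2 values were quantile normalized. Control probes and 81 probes with a non-uniform spot were then left out, and no gene probe was saturated. The linear model of limma 3.58.1 (R 4.3.3) with moderated variances compared the genotypes in 8 arrays, and its two-sided p-values were adjusted by Benjamini-Hochberg across the 34326 tested probes. The fit was tested on simulated data. Replicates were separate mice, and their number, 4 per genotype, limits the precision.

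Alternatives were a shift to the 75th percentile, normexp (offset 50), other probe filters, the methods' Welch test, a trend with robust variances, blocks for replicate number or slide row, and leaving out each mouse. A further one, leaving out spots with at least 5 bright neighbours, was chosen after seeing the data. Positions are those of the array design (mm9), symbols were matched to RefSeq names (93 of 93), and probe sequences are from the scanner files. Named genes were those past the study's criterion, Kcnj13, genes with several probes and one at p under 0.05, the lowest p of each subfamily and the 8 largest differences each way. Other channels, the partner genes and those of the bright spots were named after their values were seen. Members and lists were chosen with earlier results of these data known. Of the channels, 4 genes are counted in the totals and are not reported here by name or plotted.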

Additional observations from a re-analysis of the deposited data

Results flagged for a closer look

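In groups of 4 mice, 9 of 96 tested groups had a highest or lowest value whose gap to the next was above Dixon's 95% critical value. The gap was taken as a share of the group's range. Chance gives such a gap in about 1 in 20 groups that are chosen without regard to their values. The probes flagged here were among the named ones, picked partly by their differences in these values, so the count cannot be set against that rate. In α-Gal A(-/0) mice the share was 0.969 for Kcna3 and 0.88 for Kcnj2, both high in mouse 2 at a spot with bright neighbours. It was 0.978 for Kcne3, low in mouse 2, 0.909 for Kcnab1, low in mouse 4, 0.87 for Kcnn2, low in mouse 1, and 0.878 for Kcnc1 probe 2, low in mouse 3 at an SD of only 0.0102. The number of probes well above background on the mutant arrays gave 0.851, from the low count of mouse 2. In wildtype mice it was 0.903 for Kcnh4 probe 1, low in mouse 2, and 0.833 for Kcnn3 probe 2, low in mouse 3.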

How the results depend on the processing

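The absence of called channel probes held under every alternative except the intensity trend with robust variances, which called 1 and, of the partners, 1 probe (Snap25). Over the whole array the calls numbered 303, and 401 with normexp, 221 without a filter, 89 with the methods' t-test, 436 with the trend, 156 with the replicate block, 147 with the slide row block and 187 to 264 with a mouse left out. Channel probes past the study's criterion numbered 1 with the methods' t-test (Kcnj13 probe 1, beside 1.82% of all tested probes). They numbered 7 with the replicate block (3.62% of all) and 1 with the slide row block (2.65%). With a mouse left out they numbered 1 to 7 (2.52% to 4.16% of all), and those without overlap 9 to 20 (9.52% to 14.3%). The channel median was -0.03101 within slide row 1. Same-numbered mice were not clearly alike (correlations of same-numbered deviations -0.0883, 0.139, 0.0158 and 0.148, own number closest in 1 of 4). With so few mice this check cannot exclude a pairing by replicate number. Of 46 named probes, Kcnj2 turned to -0.008466 without bright-neighbour spots, Kcnip3 probe 1 to -0.02207 and Kcnma1 probe 3 to 0.0167 with the slide row block, and Kcnt2 probe 2 to 0.0043 with normexp. With a mouse left out, signs turned within -0.07553 to 0.1916 for Kcnd1 probe 1, -0.09276 to 0.06216 for Kcnf1 probe 1, -0.2073 to 0.06793 for Kcng2 probe 2, -0.01359 to 0.04992 for Kcnip3 probe 1, -0.007903 to 1.666 for Kcnj2, -0.7188 to 0.09086 for Kcnk15 probe 2, -0.08165 to 0.01164 for Kcnma1 probe 3, -0.05505 to 0.142 for Kcnn3 probe 2 and -0.3504 to 0.08204 for Kcnt2 probe 2. The causes were not tested. Values moved by over 1.5 times or turned sign for 19 of the 46 with the slide row block, among them Kcne1l probe 2 (to 0.07268), Kcne1l probe 1 (to 0.1093), Kcnv1 (to -0.07237) and Kcnk6 (to -0.2185), and for 22 with some mouse left out. Signal over background limits Kcne3, Kcng3, Kcnip3 probe 2, Kcnk15 probe 2, Kcnmb2 probe 2, Kcnn3 probe 1 and Kcnt2 probe 2, which were not above background on every mutant array.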
